A study of Mus musculus with 3 samples.

Results

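Cingulin, its paralog paracingulin and 4 other genes of the tight junction, the zonula occludens scaffolds Tjp1 and Tjp3, occludin (Ocln) and the junctional adhesion molecule F11r, were described in mouse leukaemia cells. They were picked because Cgn was far higher on both treated arrays than on the untreated one, so the values of Cgn are a description and were not tested. The scanner files hold 7 probes for these 6 genes, of 55681 probes and 34770 gene names in all. Each probe is given on every array as the log2 of the processed signal minus the log2 of that array's 75th percentile, called the log2 signal below.

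The cells are HoxA9-Meis1 AML cells, an acute myeloid leukaemia line of C57Bl/6 origin taken from bone marrow, and all were kept in SFEM medium. Of 3 arrays, 1 carries the label Pyrydopyrazine A2 (3.4 µM), 1 that of retinoic acid (RA) with 1α-hydroxy-D3 Vitamin (D3V) at 10 µM each, and 1 is of untreated cells, all after 24 h. With 1 array for each condition no difference has a replicate check, no test across samples was possible, and variation between cultures is not known. The labels do not say how the cells were transformed or whether they are 1 clone.

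The names of the treated arrays are in doubt. By rank over all spots, the authors' value table has the A2-labelled array in its RA plus D3V column and the RA+D3V-labelled array in its A2 column (Spearman 1 for both), and which is right was not decided. Arrays are called here by the labels of their scanner files. The table also holds a second set of control values that equals none of the scanner files (highest Spearman 0.936, with the untreated array), and these serve as a second control below. Between 46.0% and 46.8% of spots were well above background, none was saturated, and replicate spots of one probe had a median SD of 0.0606 to 0.0703 on the log2 scale. All 10 myeloid leukaemia cell markers, among them Ptprc, Spi1 and Hoxa9, were well above background on every array, but not all kept their level. On the A2- and RA+D3V-labelled arrays the log2 differences from untreated were -2.22 and -1.57 for Mpo and 2.37 and 2.31 for Itgam. Hoxa9 had 1.19 and 0.38 in the same order, and the other markers stayed within 2-fold on both, each gene on its brightest probe.

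Tight junctions seal neighbouring epithelial or endothelial cells. Occludin, claudins and junctional adhesion molecules span the membrane, and the zonula occludens proteins beneath them bind the adaptors cingulin and paracingulin, which connect the junction to actin, myosin and regulators of small GTPases. Leukocytes build no such barrier, but some junction proteins are found on them, above all the adhesion molecule encoded by F11r, which is also known on platelets.

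Every statement on a member rests on 1 probe, except for Ocln with 2, so stretches of the measured probes are shown to let a reader place the signals. Positions are those of the scanner files (mm9), and the strand of each probe equals that of its gene in RefSeq. The files do not say which exon or untranslated region a probe lies in. The first 30 of 60 bases are given for Cgn (chr3:94564061-94564090, minus strand), Cgnl1 (chr9:71479624-71479653, minus strand) and F11r (chr1:173393848-173393877, plus strand), and the last 30 for Tjp3 (chr10:80735967-80735996, minus strand), where capitals mark a polyadenylation signal, AATAAA.
Cgn: catgatttaaaagaagatattctgcagatc
Cgnl1: ttaaagagccggattatccacctggaaggt
F11r: attagtcactcttcatttggctggaactac
Tjp3: cttctgaccacttAATAAAtctttaaaaaa
The full probes of the paralogs Cgn and Cgnl1 share no run longer than 6 bases. Of 246 genes read by a probe with a run of 8 or more alternating G and T bases, 48.8% were at least 2-fold below untreated on both treated arrays, against 2.15% of 16759 genes without one. No member probe holds such a run (longest 6 bases, in F11r).

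Of the 6 genes, Cgn, Cgnl1, Tjp3 and F11r were well above background on all 3 arrays, whereas Tjp1 and Ocln were not on any. Cgn was 227-fold higher on the A2-labelled array and 49.3-fold higher on the RA+D3V-labelled array than without treatment. Cgnl1 was 8.71-fold higher on the A2-labelled array and within 2-fold on the other. Tjp3 and F11r stayed within 2-fold of the untreated array on both. Both spots had to be well above background, and 2-fold apart or more, for a gene to count as higher or lower. By that measure 2 of 4 measured members were higher on the A2-labelled array, where 7.92% of 17280 measured genes were, and 1 of 4 on the RA+D3V-labelled array, where 7.81% of 17281 were. The set was chosen on these differences, so nothing is read from the shares. In a bulk RNA sample, more RNA per cell and more cells of a kind cannot be told apart.

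**Figure D1:**
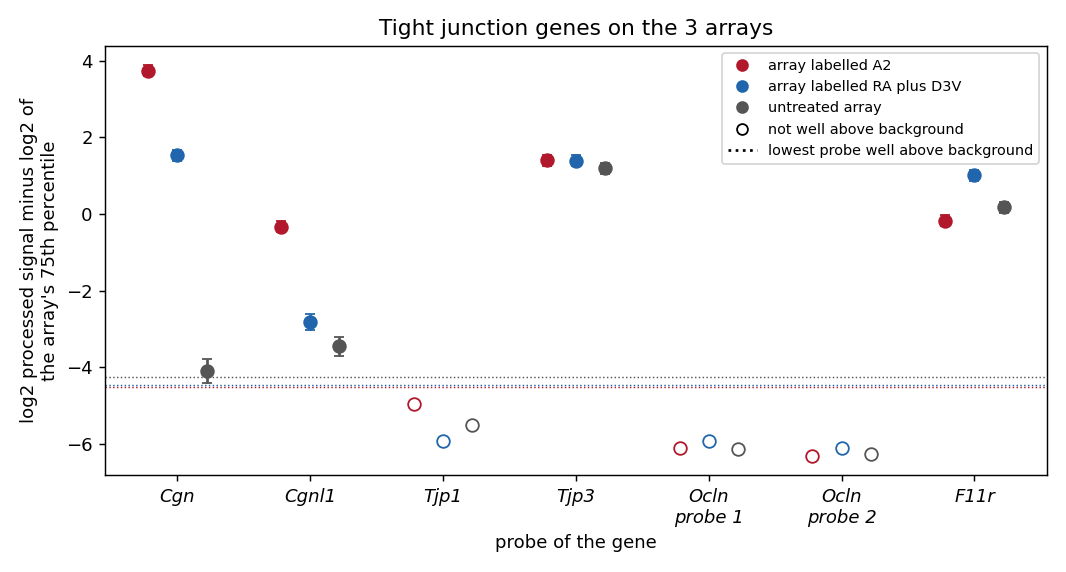
Log2 signal of the 7 probes (y axis, relative to the array's 75th percentile) on the A2-labelled array, the RA+D3V-labelled array and the untreated array, with the scanner software's error of the spot for filled points. Open points were not well above background and dotted lines mark each array's lowest probe that was. Cgn runs from 3.73 and 1.53 on the treated arrays to -4.10 on the untreated one, while Tjp3 stays between 1.19 and 1.40.

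Cgn encodes cingulin, a dimeric coiled-coil protein of the cytoplasmic plaque that binds zonula occludens proteins, actin and the GTPase exchange factor encoded by Arhgef2. Its processed signal was 3647 ± 365 on the A2-labelled array, 839 ± 84.0 on the RA+D3V-labelled array and 21.0 ± 4.60 on the untreated array, where the error is the scanner software's own for 1 spot. Both treated signals stand far clear of the untreated one, which lay just over that array's dimmest probe well above background (18.6). The log2 difference was 7.83 ± 0.35 for the A2-labelled array minus untreated, the second largest of 17280 genes, and 5.62 ± 0.35 for the RA+D3V-labelled array minus untreated, the 7th of 17281. The A2-labelled array was 4.61-fold above the RA+D3V-labelled array (log2 difference 2.21 ± 0.20).

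Because the untreated level was so near background, the size of the fold depends on how background is treated. Before any correction the spots had mean signals of 4099, 991 and 62.9 on the A2, RA plus D3V and untreated arrays, over local backgrounds of 27, 30 and 29. With normexp correction and an offset of 50, which compresses dim signals, the log2 differences from untreated were 5.83 for the A2-labelled array and 3.72 for the RA+D3V-labelled array. Cgn stayed more than 2-fold higher on both treated arrays in all 7 alternatives, and its lowest value was 3.72. Not all of them could change that outcome. The filter and the choice of probe left Cgn as it was, because its 1 probe cleared background on all 3 arrays. Changing the labels only swapped its values. Against the second control, on the value table's own scale, it had log2 differences of 7.20 on the A2-labelled array and 5.02 on the RA+D3V-labelled array. The control sources were compared after the untreated array was mapped by rank onto that scale. They then differed by 0.20 for Cgn, while the SD of that difference was 0.782 over the 500 genes nearest to Cgn in untreated level. The change from 7.83 to 7.20 thus holds a change of scale as well as of control.

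Cgnl1 encodes paracingulin, which is found at tight and adherens junctions and recruits exchange factors for small GTPases. Its processed signal was 217 ± 22.1 on the A2-labelled array, 41.3 ± 6.16 on the RA+D3V-labelled array and 32.6 ± 5.79 on the untreated array. Only the A2-labelled array stands apart, and the other treated array lies near the untreated one. The log2 difference from untreated was 3.12 ± 0.29 on the A2-labelled array and 0.64 ± 0.33 on the RA+D3V-labelled array, and the treated arrays differed by 2.48 ± 0.26 (5.58-fold higher on the A2-labelled array).

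The second control gave Cgnl1 log2 differences of 2.68 on the A2-labelled array and 0.21 on the RA+D3V-labelled array. With normexp the value for the A2-labelled array minus untreated was 1.79 and that for the A2-labelled array minus the RA+D3V-labelled array was 1.46 on the log2 scale, both smaller than above and still past 2-fold. Over the 500 genes nearest in untreated level the SD between the control sources was 0.812, and 11.4% of them were at least 2-fold apart. From either control, the difference of the RA+D3V-labelled array was under that SD and that of the A2-labelled array over it. Cgn and Cgnl1 were thus both higher on the A2-labelled array, whereas on the RA+D3V-labelled array Cgn was higher and Cgnl1 was not past 2-fold. No replicate allows a test of that contrast.

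**Figure D2:**
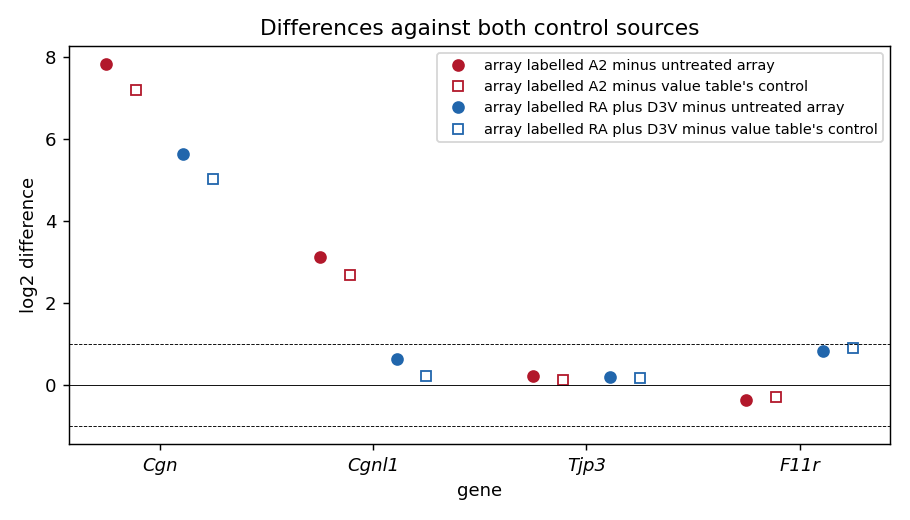
Log2 difference (y axis) of each treated array from the untreated scanner array (filled circles) and from the value table's control on the table's own scale (open squares) for the 4 measured genes. Dashed lines mark 2-fold. Cgn lies at 7.83 and 7.20 for the A2-labelled array and at 5.62 and 5.02 for the RA+D3V-labelled array, and all points of Tjp3 and F11r lie within 2-fold.

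The zonula occludens proteins are scaffolds that bind claudins and occludin on one side and actin and cingulin on the other. Tjp3, which encodes ZO-3, had a processed signal of 724 ± 72.6 on the A2-labelled array, 762 ± 76.4 on the RA+D3V-labelled array and 816 ± 81.8 on the untreated array. The error ranges of the 3 spots overlap, and after scaling the log2 differences from untreated were 0.21 ± 0.20 and 0.20 ± 0.20 for the A2- and RA+D3V-labelled arrays. Against the second control they were 0.13 and 0.18. Tjp1, which encodes ZO-1, gave 8.86 ± 3.97 on the A2-labelled array, 4.77 ± 4.74 on the RA+D3V-labelled array and 7.81 ± 4.95 on the untreated array. None of these was well above background, so Tjp1 has no fold, and transcripts without the probe's stretch would not be seen.

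Of the membrane proteins, Ocln was not well above background with either probe on any array. Its first probe gave 3.98 on the A2-labelled array, 4.81 on the RA+D3V-labelled array and 5.09 on the untreated array, and the second gave 3.46, 4.23 and 4.66 in the same order of arrays. The scanner error of each spot was at least as large as its signal.

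F11r encodes JAM-A, an immunoglobulin-like adhesion molecule with a part in leukocyte migration. Its processed signal was 243 ± 24.7 on the A2-labelled array, 588 ± 59.0 on the RA+D3V-labelled array and 405 ± 40.9 on the untreated array, so the treated arrays lie on opposite sides of the untreated one. The log2 differences from untreated were -0.35 ± 0.21 on the A2-labelled array and 0.84 ± 0.21 on the RA+D3V-labelled array. Both are under 2-fold, and the second control gave -0.28 and 0.91. The SD between the control sources was 0.265 over the 500 genes nearest in untreated level. Set against each other, the A2-labelled array was lower than the RA+D3V-labelled array by more than 2-fold (log2 difference -1.19 ± 0.21). That call ended under normexp, with a log2 difference of -0.97. Between the treated arrays Cgn and Cgnl1 were thus 2 of 4 measured members higher on the A2-labelled array, where 3.77% of 17631 genes were, and F11r was the 1 lower, where 4.04% were.

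Markers of other cell types moved on the same arrays. The summed signal of 10 megakaryocyte and platelet markers, as multiples of the 75th percentile, was 19.3 on the A2-labelled array, 25.2 on the RA+D3V-labelled array and 1.25 on the untreated array, with 5, 5 and 4 of them well above background. Pf4 (log2 differences from untreated of 4.50 on the A2-labelled array and 5.68 on the RA+D3V-labelled array), Ppbp and Vwf were high in that list, while Itga2b, Gp1ba, Gp1bb, Gp9 and Gp6, which mark the lineage more closely, were not well above background on any array with the probe used. The 10 epithelial markers summed to 1.50 on the A2-labelled array, 2.41 on the RA+D3V-labelled array and 4.39 on the untreated array, with 6, 6 and 5 of them well above background. Krt18 led it and was lower than untreated on both treated arrays (-2.35 on the A2-labelled array, -1.42 on the RA+D3V-labelled array), and the other 9 summed to 0.788 on the A2-labelled array, 1.05 on the RA+D3V-labelled array and 0.764 on the untreated array. Some of these 9 cleared background on a treated array only: Rab25 on the A2-labelled array, at least 2.54-fold above untreated, Krt5 there too (at least 1.27-fold), and Cdh1 and Krt19 on the RA+D3V-labelled array, at least 6.84-fold and 1.47-fold above untreated. Epcam cleared background on the untreated array only, and Krt8 on none. Of 10 endothelial markers, Cdh5, Tek, Tie1, Emcn, Cldn5 and Esam were not well above background on any array, and the sum was 21.2 on the A2-labelled array, 24.8 on the RA+D3V-labelled array and 17.8 on the untreated array, with 4, 3 and 3 of them well above background. Robo4 cleared background on the A2-labelled array only, where Cgn was also highest, at least 8.23-fold above the untreated array and at least 9.48-fold above the RA+D3V-labelled array. On their brightest probes, Egfl7, Kdr and Pecam1 were well above background on all 3 arrays and within 2-fold of untreated on both treated ones. A second Kdr probe, read from 10 spots, failed to clear background throughout. Its log2 signal was -6.06 on the A2-labelled array, -5.86 on the RA+D3V-labelled array and -5.98 on the untreated array. The probes of Kdr thus disagree. Egfl7 led the endothelial list. Without it the sum was 8.70 on the A2-labelled array, 9.18 on the RA+D3V-labelled array and 5.71 on the untreated array, with Kdr still included. The part of such cells in the values of the members was not tested.

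The wider junction was read from 7 lists with 111 genes besides the members, of which 108 were on the array. On the A2-labelled array, 3 of 52 measured genes were at least 2-fold higher than untreated and 1 was lower (5.77% and 1.92%, against 7.92% and 6.46% of all measured genes), with a median log2 difference of -0.01, where that of all genes was -0.03. On the RA+D3V-labelled array, 4 of 51 were higher and 0 lower (7.84% and 0%, against 7.81% and 5.04% of all genes), with a median of 0.04, where that of all genes was -0.03. Between the treated arrays, 2 of 52 were at least 2-fold higher and 5 lower on the A2-labelled array (3.85% and 9.62%, against 3.77% and 4.04% of all genes), with a median of -0.05, where that of all genes was -0.02. No measured gene of the lists differed from untreated as much as Cgn, and the highest was Myh14 with 4.41. With the median over a gene's probes the count for the RA+D3V-labelled array was 8 higher.

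**Figure D3:**
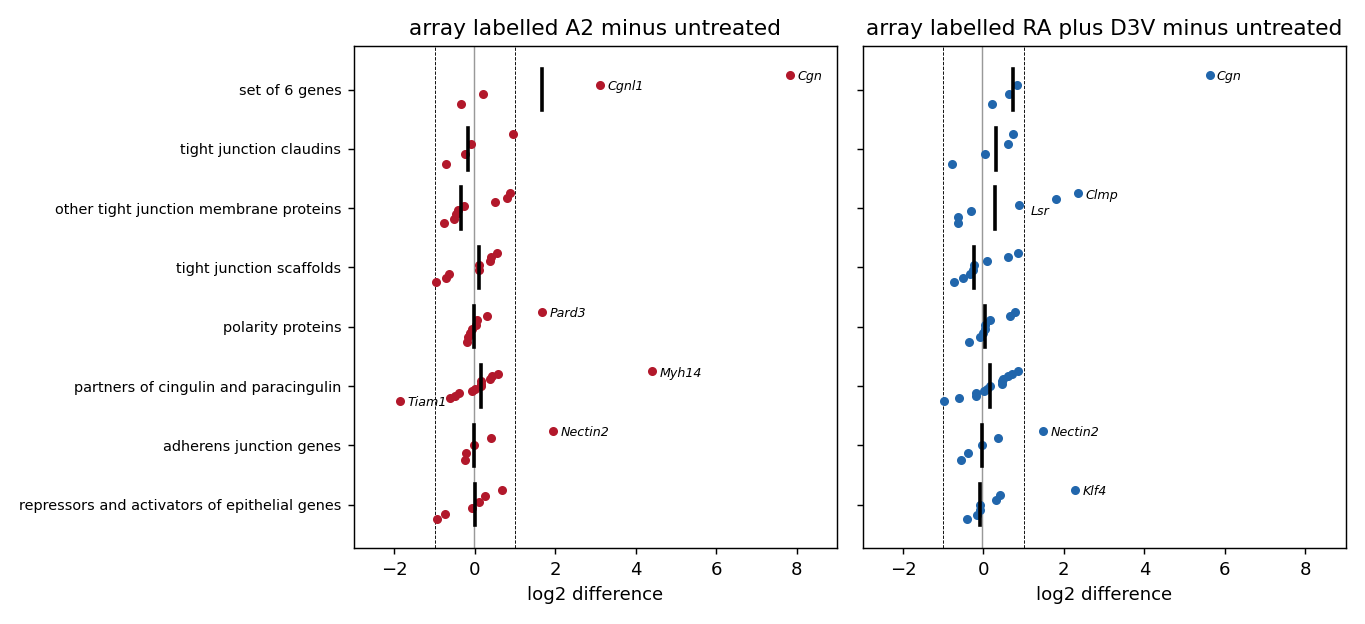
Log2 difference from untreated (x axis) of each measured gene of the set and of 7 lists, for the A2-labelled array (left) and the RA+D3V-labelled array (right). Black bars are list medians, the grey line is the median of all genes, dashed lines mark 2-fold and points are spread vertically for display. Cgn, at 7.83 and 5.62, stands far to the right of every list.

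Claudins form the paracellular barrier. Of 23 on the array 7 were well above background on at least 1 array, and all 4 measured against untreated on both treated arrays stayed within 2-fold. Cldn15 had log2 differences from untreated of -0.09 on the A2-labelled array and 0.60 on the RA+D3V-labelled array, and Cldn12 ones of -0.72 and -0.79. Those of Cldn9 were 0.96 and 0.74, and those of Cldn7 were -0.24 and 0.04. Cldn4 was above background on the treated arrays only, at least 2.45-fold higher on the A2-labelled array and at least 2.15-fold higher on the RA+D3V-labelled array than on the untreated array. Such a bound sets the brighter signal against the other array's dimmest probe well above background, or the probe's own signal there if higher. The other probes of Cldn4 and Cldn7 did not clear background on any array. Cldn11 was above background on the RA+D3V-labelled array only, and Cldn23 on the untreated array only, with bounds under 2-fold.

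Among other membrane proteins of the junction, Lsr, which marks contacts of 3 cells, and Clmp, an adhesion protein related to the coxsackie and adenovirus receptor, were higher than untreated on the RA+D3V-labelled array (log2 differences 1.80 and 2.35). On the A2-labelled array Lsr had -0.52 and Clmp 0.80. The other 4 measured on the RA+D3V-labelled array, and all 8 measured on the A2-labelled array, stayed within 2-fold of untreated on their brightest probes. A dimmer probe of 1 of them, Marveld1, cleared background on both treated arrays (log2 signal -3.16 on the A2-labelled array, -3.69 on the RA+D3V-labelled array). It did not on the untreated array (-5.94), so the probes of Marveld1 disagree. Of the relatives of F11r, Jam3 did not clear background on any array. Jam2 cleared it with its brightest probe on the A2-labelled and untreated arrays (log2 difference 0.88) and not on the RA+D3V-labelled array. By that probe the A2-labelled array was at least 2.90-fold above the RA+D3V-labelled one, where F11r was lower on the A2-labelled array. The other probes of Jam2 did not clear background on any array. All 8 measured genes in the list of scaffolds and associated proteins lay within 2-fold on both treated arrays. Among them were Sympk (0.11 on the A2-labelled array, 0.10 on the RA+D3V-labelled array) and Ybx3 (-0.71 and -0.25).

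Of 13 measured partners of cingulin and paracingulin, 1 was higher and 1 lower on the A2-labelled array, and none was past 2-fold on the RA+D3V-labelled array. Myh14, a heavy chain of non-muscle myosin II, had a log2 signal of 1.99 on the A2-labelled array, -1.72 on the RA+D3V-labelled array and -2.42 on the untreated array, a log2 difference from untreated of 4.41 on the A2-labelled array. As with Cgnl1, only the A2-labelled array stands apart. Its other probe did not clear background on any array. Tiam1, a Rac exchange factor that paracingulin recruits, was lower on the A2-labelled array (-1.86) and had 0.17 on the RA+D3V-labelled array. The exchange factor gene Arhgef2 had 0.17 and 0.61 in the same order. Arhgef18 lay within 2-fold on its brightest probe (0.00 on the A2-labelled array, 0.02 on the RA+D3V-labelled array), and its second brightest gave 0.61 and 1.44, so its probes disagree. Dimmer probes well above background on all arrays also put Racgap1 (-1.18) and Sh3bp1 (1.36) past 2-fold on the RA+D3V-labelled array, where their brightest probes had -0.98 and 0.47.

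The polarity genes, which position junctions along the cell's axis, had 1 of 8 measured members higher on the A2-labelled array, Pard3 (1.67 on its brightest probe and 0.21 on another that was well above background on all arrays), and 0 on the RA+D3V-labelled array. In the adherens junction list Nectin2, an immunoglobulin-like adhesion molecule, was the 1 of 5 measured genes that was higher on each treated array, with log2 differences from untreated of 1.95 on the A2-labelled array and 1.49 on the RA+D3V-labelled array, and of 1.70 and 1.49 on its second probe. Vcl was within 2-fold on its brightest probe and had 1.11 on a dimmer one on the RA+D3V-labelled array. E-cadherin, Cdh1, was above background on the RA+D3V-labelled array only, at least 6.84-fold above untreated. Cdh3 was above background on the untreated array only, at least 3.25-fold lower on the A2-labelled array and at least 3.16-fold lower on the RA+D3V-labelled array.

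Of the listed repressors and activators of epithelial genes, all 6 measured on the A2-labelled array and 6 of 7 measured on the RA+D3V-labelled array were within 2-fold of untreated. Klf4, an activator in epithelia, was higher on the RA+D3V-labelled array (2.28) and had -0.75 on the A2-labelled array. Twist1, a repressor, was above background on the RA+D3V-labelled array only, at least 4.64-fold over untreated. Grhl1, of the grainyhead family, was at least 4.36-fold lower on the A2-labelled array than on the untreated array. The E-cadherin repressor genes Zeb1 (-0.95 on the A2-labelled array, -0.08 on the RA+D3V-labelled array) and Zeb2 (0.66 and 0.32) stayed within 2-fold on their brightest probes, and Snai1 and Snai2 were not well above background on any array. A dimmer Zeb2 probe, well above background on all 3 arrays, was past 2-fold on the A2-labelled array (1.09) and had 0.60 on the RA+D3V-labelled array, so the probes of Zeb2 disagree.

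The genes most like Cgn were found by the distance between their pairs of log2 differences from untreated. It was taken over 3 arrays and 12329 other genes well above background on each and named in RefSeq. Both differences contain the same untreated array. The nearest was Mgarp, a mitochondrial protein gene (distance 1.04), with 7.61 on the A2-labelled array and 6.64 on the RA+D3V-labelled array. It was followed by the aldolase gene Aldoc (distance 1.50; 6.34 and 5.79), the macrophage receptor gene Trem2 (1.60; 6.26 and 5.32), the membrane protein gene Ms4a7 (2.13; 5.88 and 4.76) and the chemokine gene Ccl2 (3.16; 4.67 and 5.71). None of the 5 is in a junction list. Cgn, Mgarp, Aldoc and Trem2 were the 4 of these 12330 genes at least 32-fold higher than untreated on both treated arrays. Genes not well above background on the untreated array could not enter this count or the distances. Ppbp was such a gene, at least 148-fold above untreated on the A2-labelled array and at least 43.3-fold on the RA+D3V-labelled array.

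**Figure D4:**
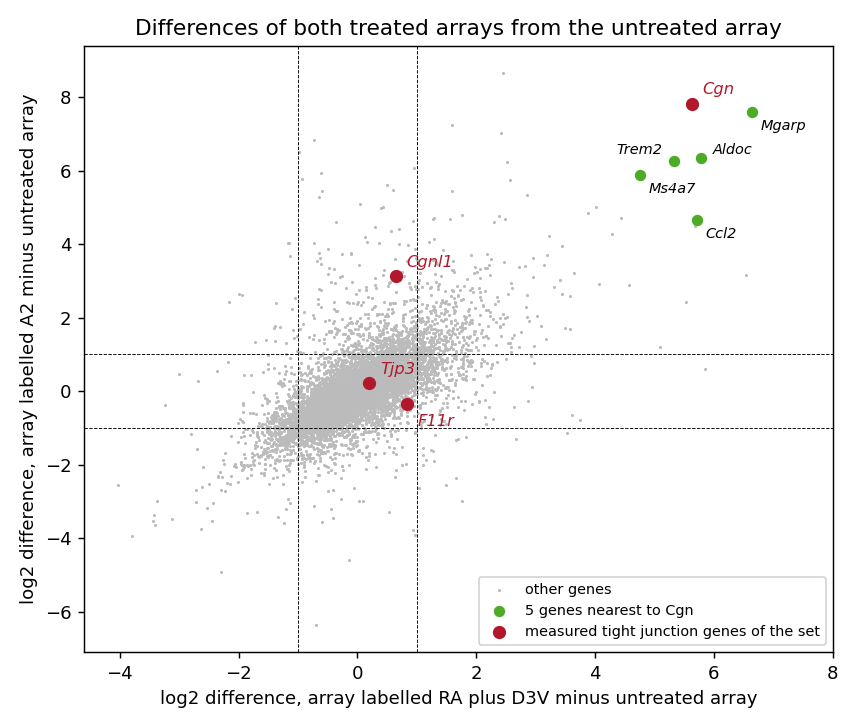
Log2 difference from untreated on the A2-labelled array (y axis) against that on the RA+D3V-labelled array (x axis). Points are 12330 genes well above background on all 3 arrays and named in RefSeq. The 4 measured junction genes are in red and the 5 genes nearest to Cgn in green. Dashed lines mark 2-fold. Cgn lies at the upper right, Cgnl1 is high on the y axis only (3.12 against 0.64), and Tjp3 and F11r lie inside the 2-fold lines.

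The promoter of Cgn is shown because this gene differed most of the set. The 250 bases before its RefSeq start (GRCm38.p6, chr3:94786483-94786732, minus strand) follow, with the palindromic E-box CACGTG and the CCAAT box in capitals.
Cgn promoter: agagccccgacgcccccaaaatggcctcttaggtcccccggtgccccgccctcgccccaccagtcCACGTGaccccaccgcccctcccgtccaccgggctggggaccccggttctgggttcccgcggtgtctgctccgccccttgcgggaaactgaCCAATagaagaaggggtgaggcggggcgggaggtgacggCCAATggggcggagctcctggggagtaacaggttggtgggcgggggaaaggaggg
A set of 5 motifs was searched on both strands in windows of 250 bases before to 50 after each start. CACGTG, which begins 185 bases before the Cgn start, occurs in 7.15% of 32851 such windows. It contains the hypoxia response core ACGTG (19.6% of windows). CCAAT, at 94 and 55 bases before the start, occurs in 37.4%. The nuclear receptor motif AGGTCA (16.3% of windows) and the Snail and Zeb box CAGGTG (20.2%) are not in the Cgn window. The Cgnl1 window holds none of the 5 motifs. These letters are a description of the windows and say nothing of binding.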

How the data were processed

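Per the labels, 50 ng of total RNA was amplified and labelled with Cy3. Scanner files deposited for each array, written by Agilent Feature Extraction 11.5.1.1, give the intensity of each spot, per the file headers corrected for background and spatial trend without scaling between arrays, with the software's error and 0 or 1 flags. The authors' deposited value table is quantile-normalized intensity on a linear scale. Those flags, the other deposited values, were used as given.

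Control spots and 25 spots marked uneven were left out. Spots of a probe were averaged as log2 signal over the 75th percentile. Names came from RefSeq by accession (27656 probes), symbol (3401) or synonym (321), and 24303 kept the file's name. A gene was read on its brightest probe. The ± beside a signal is the scanner software's error of 1 spot, and beside a difference both errors combined in quadrature. They cover the spot, not the culture, and the number of arrays limits the precision. Members and lists were chosen with earlier results of these data known. Named genes were all members, list genes past 2-fold (at most 3 each way for each comparison), claudins above background, Jam3 and the 5 nearest to Cgn; 1 further gene under this rule is not reported here. Other genes were chosen after their values were seen.

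Python 3.11.15 with numpy 2.4.6, and R 4.3.3 with limma 3.58.1 for normexp, were used. The calling step was tested on simulated data. Promoters are from RefSeq (GRCm38.p6), where all 6 genes had a window. Alternatives changed the background correction, scaling, filter, control source, choice of probe and labels of the treated arrays.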

Additional observations from a re-analysis of the deposited data

How the results depend on the processing

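No replicate exists, so no array could be left out, and no paired analysis was possible because each condition has 1 array. Under the value table's own labels the treated arrays change places: the log2 differences between A2 and RA plus D3V become -2.21 for Cgn, -2.48 for Cgnl1 and 1.19 for F11r. The members past 2-fold then number 1 for A2 and 2 for RA plus D3V against untreated, the wider-list genes lower than untreated 0 for A2 and 1 for RA plus D3V, and those between A2 and RA plus D3V 5 higher and 2 lower.

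With the labels of the scanner files, the number of members past 2-fold against untreated was 2 for the A2-labelled array and 1 for the RA+D3V-labelled array in each of the other 6 alternatives. The filter and the choice of probe could not change these counts, because each measured member has 1 probe, well above background on every array. In the wider lists counts are small and moved. Lower than untreated were 3 genes on the A2-labelled array (as reported 1) and 1 on the RA+D3V-labelled array (as reported 0) with the value table's control, and 1 on that RA+D3V-labelled array also with normexp and with the median over a gene's probes, which gave 8 higher there (4 as reported). Between the treated arrays 1 was higher (as reported 2) with normexp, with scaling to the median of detected probes and with the median over probes, and 3 were lower (as reported 5) with normexp. The share of all genes past 2-fold under normexp was 7.40% for the RA+D3V-labelled array against untreated (12.9% as reported) and 4.67% between the treated arrays (7.82%). The causes were not tested. Signal near background limits Cgn and Cgnl1 on the untreated array.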
